A study of Mus musculus with 10 samples.

Results

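Reprogrammed osteocytes were compared with the reprogrammed adipocytes and reprogrammed chondrocytes of the same study, which asks whether cells brought back towards a stromal state still differ by the lineage they came from. The comparison takes 3 of the 10 arrays of the series, 1 array for each reprogrammed population, and a probe was called when the osteocyte array stood at least 2-fold above, or at least 2-fold below, both other arrays and was detected in the brighter group. All RNA came, per the labels, from adult bone marrow mesenchymal stem cells (MSC) of C57BL/6J mice. The other 7 arrays held undifferentiated MSC (MSC 1 and MSC 2), differentiated adipocytes, chondrocytes and osteocytes, in vivo derived osteocytes, and the latter after a treatment. Neither the reprogramming agents nor the treatment is named in the labels used here, and no animal, age or culture is given for any array. Only the MSC had a second array, so no value of the other populations has an error from replicates, no test was made, and each difference describes these arrays.

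MSC of the marrow are stromal cells that can be driven in culture towards bone, cartilage or fat. Osteoblasts lay down collagen and mineral and become osteocytes once the matrix surrounds them, adipocytes store lipid under the control of PPAR gamma and C/EBP proteins, and chondrocytes build a cartilage matrix under the control of Sox9. A cell that loses its lineage programme may keep part of its former expression pattern, which is often called lineage memory. Stromal cultures also differ from each other in growth rate, matrix production and interferon response, whatever their lineage.

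Values are log2 bead intensities after background correction and quantile normalisation over the 10 arrays, with a detection p-value under 0.01 taken as detection. This held for 15755 probes on the reprogrammed adipocyte array, 16737 on the reprogrammed chondrocyte array and 16531 on the reprogrammed osteocyte array, of 45281. The reprogrammed and differentiated osteocyte arrays had been deposited on intensity distributions of their own, with means of 413 and 324, while the other 8 arrays shared a mean of about 538, so array set and osteocyte lineage cannot be told apart in this comparison. No detected probe set both osteocyte arrays at least 2-fold apart from all 8 others in either direction. The widest such gaps were 0.99 and -0.78 on the log2 scale. That count asks both arrays to lie outside the range of 8 unlike arrays, so it does not measure a difference between array sets. The female transcript Xist was detected on all 3 reprogrammed arrays, at 8.57, 8.38 and 8.63, and the Y-linked Eif2s3y, Kdm5d and Uty on none of them. The treated in vivo array lacked Xist and carried these Y-linked genes, and the untreated in vivo array carried Xist together with Eif2s3y and Uty.

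Of 18272 probes detected on at least 1 of the 3 arrays, 1015 (5.55%) were called higher in reprogrammed osteocytes and 816 (4.47%) lower. Read from the brightest probe of each gene, 514 of 9931 genes (5.18%) were higher and 475 (4.78%) lower. Higher calls were 55.4% of all called probes, but 41.0% when the arrays were scaled on their 75th percentile in place of quantile normalisation, so which direction was more frequent depended on the scaling. That scaling moved the median difference of all tested probes to -0.16 from the adipocyte array and -0.18 from the chondrocyte array, against -0.03 and -0.05 under quantile normalisation. The nearer difference means the smaller of the differences from the 2 other arrays. Over genes called higher it ran from 1.00 to 5.38 on the log2 scale, with a median of 1.37. Over lower genes its size ran from 1.00 to 2.79, with a median of 1.24. Just outside the threshold, 84 genes stood between 1.9-fold and 2-fold higher and 104 likewise lower. Inside it, 69 higher and 75 lower genes were under 2.1-fold, so part of each list lies close to the limit that defined it. Where a gene was undetected on an array of the dim side, that array was set to its lowest detected level. The fold to the nearer array is then given as at least the size found. This was the case for 139 higher genes, of which 60 had a limit under 2-fold, and for 73 lower genes, of which 48 had. Where only the further array was undetected, as for Usp18 and Agt, the fold so given can equal the measured one. Among the genes named by rule and described below, the calls of Lpl, Sox9, Mmp2, Mmp13, Cdkn2a, Cdkn2b, H2-D1, Dlk1, Dnmt3b, Calr, Irs2 and Mvd were lost under 75th percentile scaling. Without background correction those of Gtsf1, ND5, Trib3, Arc, Dgat2, Bglap2, Cebpa, Sox5, Nes, Alcam, Mmp2, Wif1, Cdkn1c, Tapbp, Psmb9, Apobec1, Dnmt3b, Irs2, Trem2, Cyp4f13, Mvd, Jag1 and Gclm were lost. With a background offset of 50 those of Arc, Dgat2, Bglap2, Nes, Alcam, Cdkn1c, Dnmt3b, Irs2 and Mvd were lost.

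The 15 genes furthest above both other arrays were Ifit3, Usp18, Dcn, Agt, Isg15, Inmt, Ccn5, Hp, Ppp1r3c, Il1rn, Oasl2, Mgp, Col6a2, Abi3bp and Scara5. Ifit3, an antiviral protein induced by interferon, was at 13.05 in reprogrammed osteocytes, 7.67 in reprogrammed adipocytes and 6.96 in reprogrammed chondrocytes, which is 41.6-fold above the nearer array. Agt, the angiotensin precursor, was at 10.03 against 5.04 and 5.74, at least 19.6-fold. Hp, the haemoglobin-binding acute phase protein haptoglobin, was at 12.05 against 7.93 and 6.67, 17.5-fold. Both of its other probes were called the same way. Ccn5, a matricellular protein related to Wnt-induced factors, was at 11.27 against 7.03 and 6.92, 18.9-fold. Il1rn, the interleukin 1 receptor antagonist, was at 11.25 against 7.33 and 7.44, 14.0-fold. In the same range were Ppp1r3c, a glycogen-targeting subunit of protein phosphatase 1 (15.8-fold), Inmt, an amine methyltransferase (at least 10.6-fold), Abi3bp, an extracellular matrix protein (at least 10.7-fold), and the ferritin receptor gene Scara5 (at least 5.33-fold).

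Differences in the other direction were smaller. Gins1, a subunit of the replicative helicase complex, was at 5.89 in reprogrammed osteocytes against 8.91 and 8.68, 6.93-fold lower than the nearer array. Edn1, the peptide endothelin 1, was at 5.74 against 8.26 and 8.45, 5.73-fold lower. Ptgs2, the inducible cyclooxygenase of prostaglandin synthesis, was at 6.62 against 9.05 and 9.37, 5.39-fold lower. The fatty acid binding protein gene Fabp5 (5.28-fold), the desmosomal plakophilin gene Pkp2 (4.96-fold), the alcohol dehydrogenase gene Adh7 (5.20-fold) and Pramel4 (4.75-fold) also stood lower. Gtsf1, a germline piRNA factor, and ND5, a mitochondrially encoded subunit of respiratory complex I, were not detected in reprogrammed osteocytes and were at least 4.03-fold and at least 4.23-fold lower. Of 44 called genes under the naming rule that had another tested probe, 34 had a second probe called the same way and 0 a probe called the opposite way. Of Col6a2, Abi3bp, Mybl2, Trib3, Sox9, Cdc6, Bub1b, Slc7a11, Asns and Sesn2, the other tested probes were not called.

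**Figure D1:**
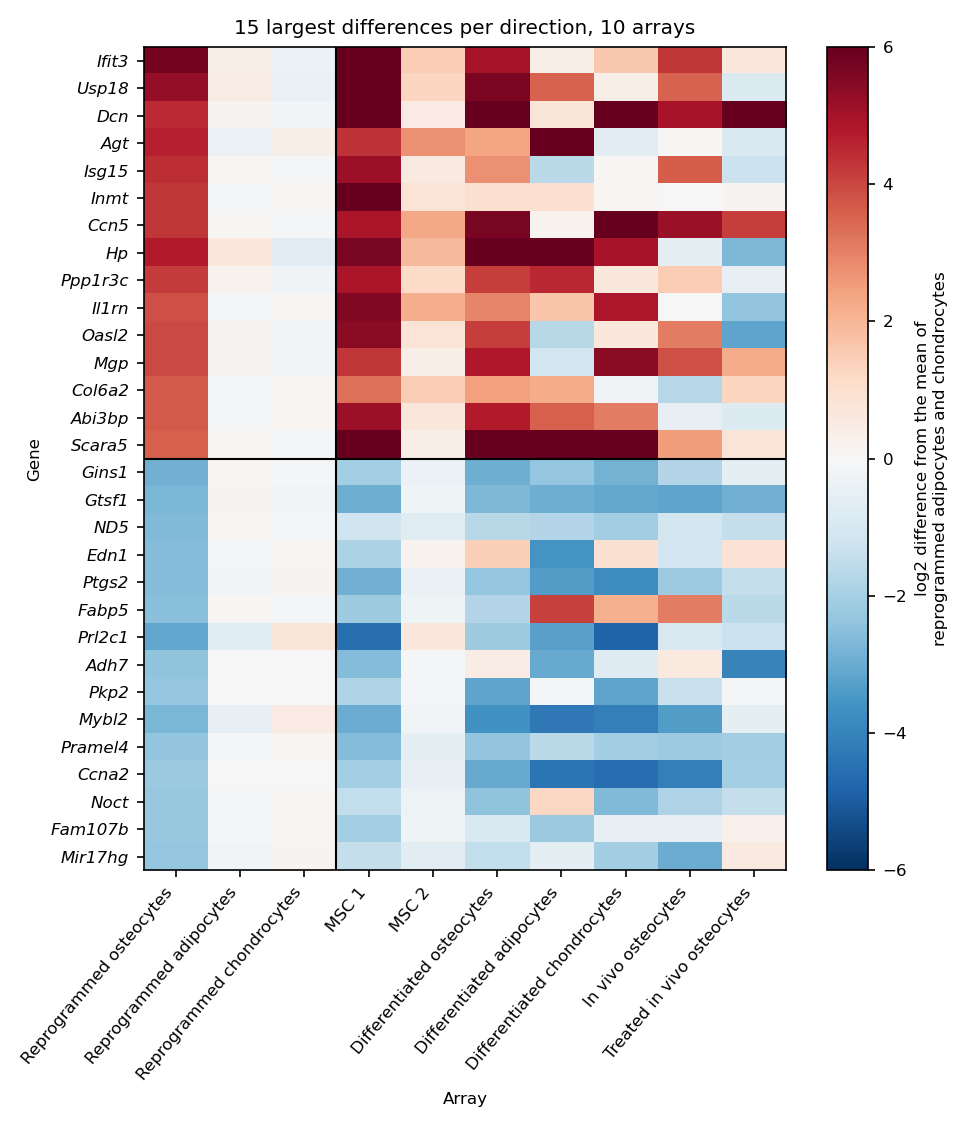
Log2 difference from the mean of the reprogrammed adipocyte and chondrocyte arrays (colour, drawn no darker beyond 6 in either direction) for the 15 genes furthest above and the 15 furthest below both, on each of 10 arrays. The MSC 1 column is red for the higher genes and blue for the lower ones, like the reprogrammed osteocyte column. MSC 2 is paler than MSC 1 for most genes, but still stands above both other reprogrammed arrays for several higher genes. Agt, for example, was at 8.13 in MSC 2 against 5.04 and 5.74.

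Interferon-stimulated genes had the largest share of higher calls among the gene lists read. Type I interferons act through transcription factors such as Stat2 and Irf9, which bind a short response element in the promoters of antiviral genes. Of 16 tested members of a list of 23, 13 were higher and 0 lower, with median differences of 2.69 from the adipocyte array and 2.74 from the chondrocyte array, against -0.06 and -0.07 over all tested genes. Ifih1, Ifit2 and Oas2 were tested and not called. The transcription factors themselves were among the higher genes. Irf7 was at 8.08 and not detected on either other array, at least 5.75-fold. Irf9 was at 10.63 against 7.63 and 7.16, 7.99-fold. Stat2 was at 9.89 against 6.75 and 6.90, 7.92-fold. Among their targets, Isg15, a ubiquitin-like modifier, was at 10.95 against 6.66 and 6.41, 19.5-fold. Usp18, the protease that removes Isg15 and restrains interferon receptor signalling, was at 11.06 against 6.20 and 5.33, at least 29.0-fold. Oasl2, of the oligoadenylate synthetase family, was at 11.86 against 8.07 and 7.78, 13.9-fold. Ddx58, which encodes the RNA sensor RIG-I, and Bst2, which tethers budding virus to the cell surface, were 4.31-fold and 8.28-fold higher, while Cmpk2 was called with a limit of 1.92-fold.

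Levels of the interferon group varied over the whole series and not with the reprogrammed state alone. The median of the 16 genes was 9.21 in reprogrammed osteocytes, 6.45 and 6.29 in the other reprogrammed arrays, 9.81 in MSC 1 and 7.07 in MSC 2. It was 8.96 in differentiated osteocytes, 5.98 in differentiated adipocytes, 6.28 in differentiated chondrocytes, 8.77 in in vivo osteocytes and 4.90 in the treated in vivo array. High medians therefore occurred on 4 arrays, from both array sets. Of the 16 genes, 15 stood at least 2-fold higher in MSC 1 than in MSC 2, arrays with the same label, against 790 of all 9931 tested genes. Ifit3 alone ranged from 6.96 in reprogrammed chondrocytes to 14.15 in MSC 1, with 8.78 in MSC 2, 12.26 in differentiated osteocytes and 11.63 in in vivo osteocytes.

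Promoters of 12 of the 16 genes were in the RefSeq promoter table (build GRCm38.p6, 250 bases before to 50 after the gene's start), and Usp18 was not among them. The core of the response element, written as GAAANNGAA and searched on both strands, occurred in 7 of the 12, in 6 of the 10 called higher, and in 9.76% of the 27025 genes of the table. The 3 promoters printed here are those of Ifit3 (chr19:34583279-34583578, plus strand), Isg15 (chr4:156200769-156201068, minus strand) and Bst2 (chr8:71537423-71537722, minus strand), shown because they belong to called genes and hold the element, in capitals on either strand, with overlapping matches joined. Matches began at -155, -121 and -102 from the start of Ifit3, at -78 from that of Isg15 and at -130 from that of Bst2. A match describes these letters and was not tested as a binding site.
Ifit3: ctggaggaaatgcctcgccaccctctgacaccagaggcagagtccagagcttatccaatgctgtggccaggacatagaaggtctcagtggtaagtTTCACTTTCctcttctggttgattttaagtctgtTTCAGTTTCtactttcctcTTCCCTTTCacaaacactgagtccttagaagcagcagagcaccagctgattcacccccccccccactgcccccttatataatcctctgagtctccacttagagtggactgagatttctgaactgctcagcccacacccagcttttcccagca
Isg15: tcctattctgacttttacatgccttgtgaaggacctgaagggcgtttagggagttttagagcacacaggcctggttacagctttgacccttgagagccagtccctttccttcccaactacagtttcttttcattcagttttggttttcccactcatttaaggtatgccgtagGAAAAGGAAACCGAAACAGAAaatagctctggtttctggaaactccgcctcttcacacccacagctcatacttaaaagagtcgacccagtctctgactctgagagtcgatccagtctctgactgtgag
Bst2: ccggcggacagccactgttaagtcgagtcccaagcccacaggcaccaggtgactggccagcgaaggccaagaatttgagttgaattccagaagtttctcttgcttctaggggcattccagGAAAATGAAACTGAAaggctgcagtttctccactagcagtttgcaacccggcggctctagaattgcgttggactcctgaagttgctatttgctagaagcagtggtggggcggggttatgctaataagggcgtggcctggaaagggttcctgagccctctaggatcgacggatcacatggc

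Of 11 tested genes of antigen presentation, 5 (45.5%, against 5.18% over all tested genes) were higher and 0 lower, with medians of 0.93 and 1.31. The list also holds MHC class II genes, none of which was detected on these 3 arrays, and H2-K1, B2m, Tap2, Psmb8, Psmb10 and Erap1 were tested and not called. H2-T23, a non-classical class I molecule, was at 11.59 against 9.00 and 9.29, 4.94-fold. Tap1, which carries peptides into the endoplasmic reticulum, was at 8.78 against 6.82 and 6.57, 3.89-fold. The class I heavy chain H2-D1, the peptide-loading protein Tapbp and the immunoproteasome subunit Psmb9 were 2.47-fold, 2.65-fold and 2.28-fold higher. Between the MSC arrays, 8 of the 11 genes stood at least 2-fold higher in MSC 1, against 790 of all 9931 tested genes.

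**Figure D2:**
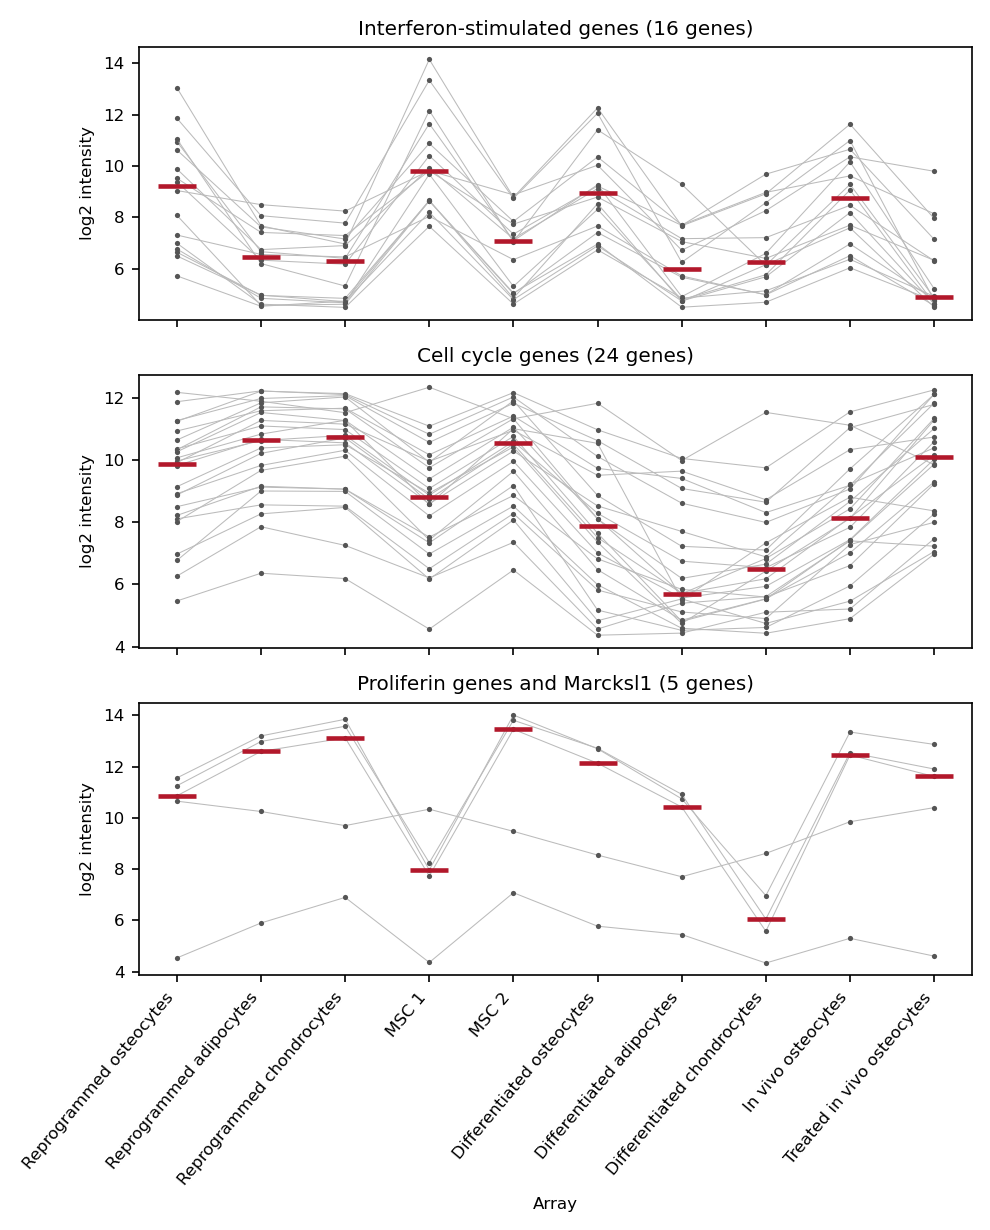
Log2 intensity (vertical axis) of each tested member of 3 gene lists on the 10 arrays, with a line joining the points of 1 gene and a red bar at the median of the list. The interferon median is high in reprogrammed osteocytes, MSC 1, differentiated osteocytes and in vivo osteocytes, and the cell cycle median of reprogrammed osteocytes, 9.86, lies between those of MSC 1, 8.80, and MSC 2, 10.55.

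Of 24 tested cell cycle genes, 9 (37.5%, against 4.78% over all tested genes) were lower and 0 higher, and the rest were not called. Their median differences were -0.92 and -0.94. Ccna2, the cyclin of S and G2 phase, was at 6.77 against 9.00 and 8.99, 4.65-fold lower. Cdc6, which loads the replicative helicase on origins, was at 8.02 against 9.66 and 10.12, 3.12-fold lower. The helicase subunit Mcm5, the polymerase clamp Pcna and the nucleotide reductase subunit Rrm2 were 2.29-fold, 2.36-fold and 2.00-fold lower. Of the mitotic genes, the kinase Plk1 was 2.53-fold, the spindle checkpoint kinase Bub1b 2.37-fold and Birc5, of the chromosomal passenger complex, 2.48-fold lower. Mybl2, a transcription factor of the cell cycle outside that list, was at 6.26 against 8.52 and 9.51, 4.77-fold lower. The cell cycle inhibitor Cdkn2a was at 11.70 against 10.55 and 10.09, 2.22-fold higher, and Cdkn2b was 2.19-fold higher, while Cdkn1c, another inhibitor, was 2.30-fold lower. All 24 genes were detected on all 3 arrays. Of them, 22 stood at least 2-fold lower in MSC 1 than in MSC 2, against 729 of all 9931 tested genes.

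Uhrf1 and Dnmt1, which together copy DNA methylation after replication, were 2.87-fold and 2.38-fold lower. Dnmt3b, a de novo methyltransferase, was at 5.99 against 7.06 and 7.40, 2.11-fold lower. These were the 3 lower genes among 10 tested DNA methylation genes (30%, against 4.78% over all tested genes), and the cytidine deaminase Apobec1 was 2.35-fold higher. Uhrf1 and Dnmt1 were also called lower in MSC 1 against MSC 2, while Dnmt3b was not.

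Promoters of 19 of the 24 cell cycle genes were in the same table, and Ccna2 was not. The E2F site in the forms TTTGGCGC and TTTCCCGC, searched on both strands, occurred in 4 of the 19, in 2 of the 7 called lower with an entry, and in 1.80% of the 27025 genes of the table, counting a gene once where it holds both forms. Both lower genes with a match are shown with it in capitals, Cdc6 (chr11:98907901-98908200, plus strand, match beginning at -138) and Mcm5 (chr8:75109259-75109558, plus strand, at -149). With 2 of 7 genes, the match describes these promoters only.
Cdc6: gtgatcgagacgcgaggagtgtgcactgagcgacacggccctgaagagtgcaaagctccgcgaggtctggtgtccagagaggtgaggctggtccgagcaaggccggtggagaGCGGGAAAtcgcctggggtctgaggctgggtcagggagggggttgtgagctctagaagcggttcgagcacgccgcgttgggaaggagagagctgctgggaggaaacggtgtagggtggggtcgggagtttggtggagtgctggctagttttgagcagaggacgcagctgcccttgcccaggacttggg
Mcm5: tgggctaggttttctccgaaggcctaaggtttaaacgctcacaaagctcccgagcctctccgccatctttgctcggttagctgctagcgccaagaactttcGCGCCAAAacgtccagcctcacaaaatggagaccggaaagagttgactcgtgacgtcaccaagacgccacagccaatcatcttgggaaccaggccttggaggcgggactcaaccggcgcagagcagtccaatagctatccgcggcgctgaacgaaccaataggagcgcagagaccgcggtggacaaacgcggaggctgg

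Lists of matrix genes, of matrix proteases with their inhibitors, and of Wnt ligands, receptors, secreted regulators and targets held 29.2%, 46.2% and 42.1% higher calls, against 5.18% over all tested genes. The share was 40% in the chondrocyte list, 36.4% in the imprinted, 30% in the adipocyte and 28.6% in the PDGF list, which had 5, 11, 10 and 7 tested genes. Of 24 tested matrix genes, 7 were higher and 0 lower, with medians of 0.56 and 0.59. Between the MSC arrays, 6 of the 24 stood at least 2-fold higher in MSC 1 and 4 lower. Of all 9931 tested genes, 790 and 729 did. Mgp, the matrix Gla protein that inhibits calcification, was at 13.70 against 9.91 and 9.54, 13.8-fold. Col6a2, a chain of collagen VI, was at 12.34 against 8.59 and 8.73, 12.2-fold, though its other tested probe was not called, and its partner chain Col6a1 was 3.21-fold higher. Dcn, the proteoglycan decorin, was at 9.09 and not detected on either other array, at least 11.6-fold. It was at 11.08 in MSC 1 and not detected in MSC 2, so the MSC arrays differed for this gene in the same way. Col15a1, the proteoglycan Ogn and fibronectin (Fn1) were at least 8.42-fold, 3.90-fold and 2.35-fold higher.

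Of 13 tested proteases and inhibitors, 6 were higher and 0 lower, with medians of 0.84 and 0.86. Between the MSC arrays, 5 of the 13 stood at least 2-fold higher in MSC 1 and 0 lower. Plat, the tissue plasminogen activator, was at 10.35 against 8.60 and 8.24, 3.35-fold. The gelatinase Mmp2, the collagenase Mmp13 and the inhibitor Timp2 were 2.02-fold, 2.32-fold and 2.51-fold higher. Of 19 tested Wnt genes, 8 were higher and 1 lower, with medians of 0.74 and 1.16. Between the MSC arrays, 10 of the 19 stood at least 2-fold higher in MSC 1 and 1 lower. The secreted antagonists Sfrp4, Sfrp1, Wif1 and Sfrp2 were 4.72-fold, 3.10-fold, 2.47-fold and 2.24-fold higher. Rspo2, which enhances Wnt signalling through the Lgr receptors, was at 11.25 against 8.17 and 9.18, 4.20-fold. Ccn4, a Wnt-induced matricellular protein, was the lower member, at 8.79 against 9.99 and 10.68. Among growth factors and their receptors, Pdgfra, the PDGF receptor alpha found on stromal progenitors, was at 12.49 against 9.93 and 9.64, 5.91-fold, and Igf2 was at 9.04 against 5.07 and 6.71, at least 4.99-fold. The imprinted gene Dlk1, whose product restrains adipocyte differentiation, was at 12.26 against 10.88 and 10.38, 2.60-fold. Fos, an immediate-early transcription factor, was at 10.72 against 7.66 and 7.79, 7.63-fold. Pdgfra, Igf2, Dlk1 and Fos were also called higher in MSC 1 against MSC 2.

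Of 5 tested genes in the list of proliferins, prolactin-related secreted proteins, 4 were lower, and the remaining one, Marcksl1, is not a proliferin and was not called. Prl2c2 was at 11.56 against 13.20 and 13.85, 3.12-fold lower, and Prl2c3 and Prl2c4 were 3.31-fold and 3.32-fold lower. These genes are near-identical copies, so a probe may not part them, and they are better read as 1 signal. It ranged widely between arrays of the same label, with Prl2c2 at 7.97 in MSC 1 and 14.01 in MSC 2.

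**Figure D3:**
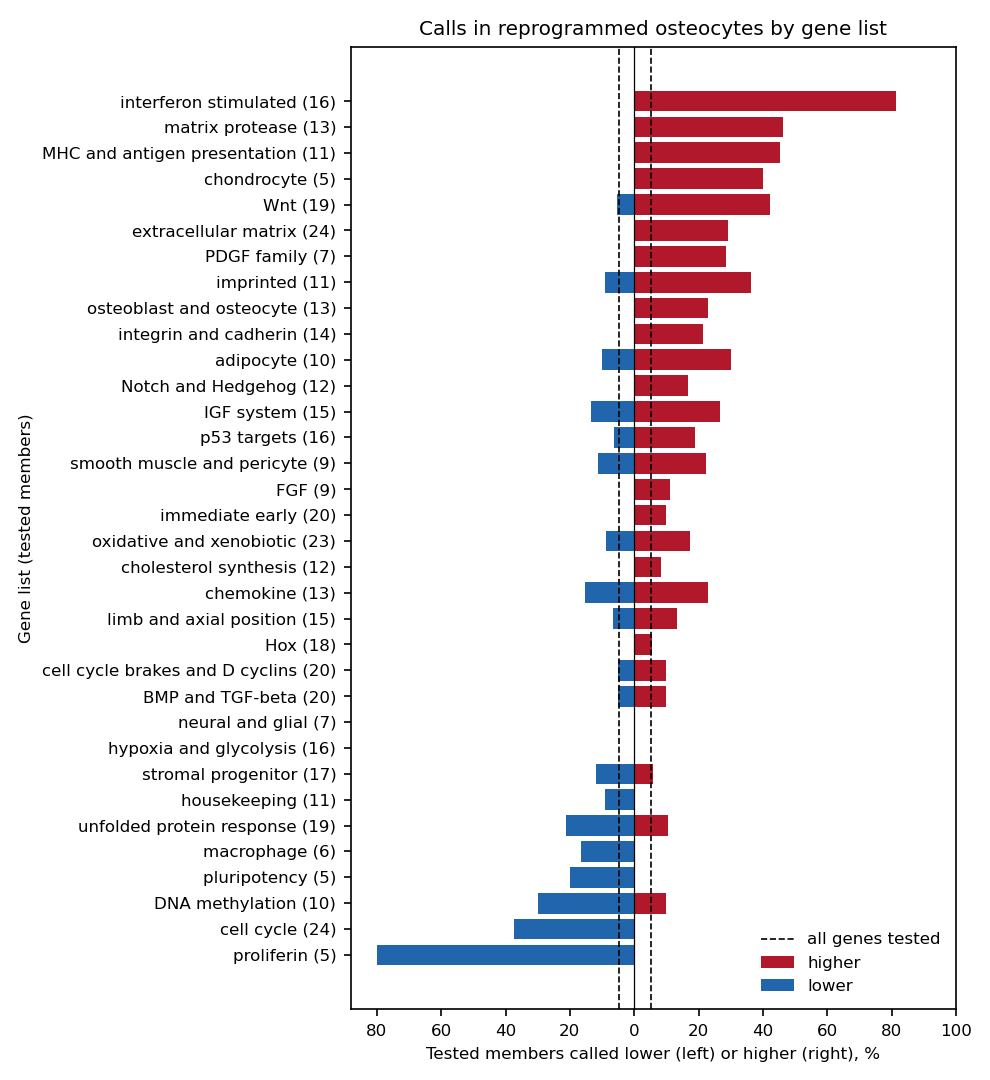
Share of tested members of each gene list called higher (right, red) or lower (left, blue) in reprogrammed osteocytes, in percent, for lists with at least 5 tested members, whose number is in brackets. Dashed lines mark the shares over all tested genes, 5.18% higher and 4.78% lower. The interferon list stands furthest to the right and the proliferin list, of 5 genes with Marcksl1 counted, furthest to the left.

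Of 13 tested osteoblast and osteocyte genes, 3 (23.1%, against 5.18% over all tested genes) were higher and 0 lower, with medians of 0.20 and -0.02. The osteocyte genes Dmp1, Mepe, Sost and Fgf23 were detected on none of the 10 arrays, the differentiated and in vivo osteocytes included, so the label has no support from these markers. Bglap2, which encodes osteocalcin, was at 5.82 and not detected on either other reprogrammed array, a difference of at least 1.20-fold. It was at 8.79 in differentiated osteocytes and 13.98 in in vivo osteocytes, and at 5.92 in MSC 1. Omd, the proteoglycan osteomodulin, was at 9.37 against 6.69 and 6.46, 6.41-fold, with 11.85 in differentiated osteocytes and 10.96 in MSC 1. Col1a1, the main collagen chain of bone, was at 12.00 against 10.49 and 9.43, 2.84-fold. Its level was 8.71 in differentiated and 11.60 in in vivo osteocytes, both below the 12.83 of differentiated chondrocytes. In differentiated adipocytes Col1a1 was not detected, and in MSC 1 it was at 10.81. The osteoblast transcription factor Sp7 was at 9.18 against 9.89 and 9.18, and the early osteocyte protein Pdpn at 12.59 against 12.58 and 12.69.

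The adipocyte and chondrocyte lists, which belong to the lineages of the other arrays, held more higher than lower calls in reprogrammed osteocytes. Of 10 tested adipocyte genes, 3 were higher and 1 lower, with medians of 0.04 and 0.04. Adipoq, the adipocyte hormone adiponectin, was at 8.54 in reprogrammed osteocytes against 5.05 and 5.44 in the other reprogrammed arrays, at least 7.92-fold, and at 14.70 in differentiated adipocytes. The adipocyte factor Cebpa and the lipase Lpl were 2.43-fold and 2.02-fold higher, Pparg was at 10.66 against 11.44 and 11.60, and Dgat2, an enzyme of triglyceride synthesis, was 2.15-fold lower. Of 5 tested chondrocyte genes, Sox9, the cartilage regulator, was at 10.50 against 9.13 and 9.30, 2.30-fold higher, and Sox5 was 2.59-fold higher. Col2a1, the collagen of cartilage, was at 10.31 against 11.09 and 10.38 and was not called. Of 17 tested stromal genes, 1 (5.88%) was higher, Pdgfra, and 2 (11.8%) were lower, Nes by 2.54-fold and Alcam by at least 1.93-fold. Over all tested genes these shares were 5.18% and 4.78%. Of 19 macrophage genes, 5 to 6 were detected on each of the 3 arrays, against 19 of 19 in differentiated chondrocytes and in in vivo osteocytes. Cd14 was the brightest of them, at 7.17 against 7.12 and 7.94, and Adgre1, Fcgr1 and the C1q genes were not detected on the 3 arrays.

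The same contrast was then read in cells before reprogramming. Differentiated osteocytes were called against differentiated adipocytes and chondrocytes by the same rule, on arrays the first comparison does not use, and 722 genes (6.82%) were higher and 323 (3.05%) lower, with 6.2% and 3.1% at the level of probes. Of the 514 genes higher in reprogrammed osteocytes, 131 were also higher in differentiated osteocytes, 25.5% of the former and 18.1% of the latter, and 11 (2.14%) were lower there. Of the 475 lower genes, 43 (9.05% of these and 13.3% of the differentiated list) were also lower and 47 (9.89%) were higher there. Both lists were shared in the same direction at a higher rate than the 10585 genes tested there, at 25.5% against 6.82% and at 9.05% against 3.05%. The lower list also ran the opposite way at 9.89% against 6.82%. Of the 9931 genes tested on the reprogrammed arrays, 631 were higher and 280 lower in differentiated osteocytes. The differentiated osteocyte array belongs to the same array set as the reprogrammed one, so this overlap cannot be told apart from that set.

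In vivo osteocytes belong to the first array set, like the differentiated adipocytes and chondrocytes, and gave 493 higher (4.69%) and 198 lower (1.88%) genes against these, with 4.02% and 2.03% at the level of probes. Of the 514 genes, 60 were higher there, 11.7% of them and 12.2% of the in vivo list, and 29 (5.64%) were lower. Of the 475 genes, 7 (1.47%) were lower there and 78 (16.4%) were higher. Against the shares over the 10515 genes tested there, 4.69% higher and 1.88% lower, the higher list was above both. The lower list was above the former only. Of the 9931 genes tested on the reprogrammed arrays, 339 were higher and 180 lower in in vivo osteocytes. Macrophage genes were detected in full on both the in vivo osteocyte and the differentiated chondrocyte array. Of the 6 tested on the reprogrammed arrays, 1 was called higher and 0 lower in the in vivo comparison. Their median differences there were 6.57 from differentiated adipocytes and 0.38 from differentiated chondrocytes, and their part in that comparison was not tested.

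Genes higher in reprogrammed osteocytes and in both osteocyte comparisons numbered 40, which is 7.78% of the 514. Of all 9931 tested genes, 134 (1.35%) were higher in both osteocyte comparisons, which share their adipocyte and chondrocyte arrays. Of the first 8 by size, 5 were in the interferon list. The 8 were Ifit3, Isg15, Oasl2, Irf7, Dhx58, an RNA sensor related to RIG-I (at least 10.9-fold), Irgm2, an interferon-induced GTPase (9.26-fold), Stat2, and Ctsa, a lysosomal protease (7.79-fold). Ctsa had 4 other tested probes, of which 1 was called the same way. Of the 40, 34 were also at least 2-fold higher in MSC 1 than in MSC 2. The 6 that were not are Apol9b, Sema3a, Wif1, Cdkn2a, Dennd2a and Ly6c1, with nearer differences from 1.84 down to 1.00. Wif1, the secreted Wnt inhibitor, was at 9.12 in reprogrammed, 8.91 in differentiated and 8.64 in in vivo osteocytes, against 4.72 to 7.81 on the adipocyte and chondrocyte arrays, with 9.07 in MSC 1 and 8.43 in MSC 2. Of all 9931 tested genes, 27 (0.27%) were lower in both the differentiated and the in vivo osteocyte comparison. Of the 475 lower genes, 4 (0.84%) were lower in both, and all 4 were also lower in MSC 1. These were Chac1 (3.44-fold) and Trib3 (2.98-fold), both targets of the amino acid and endoplasmic reticulum stress response, the activity-regulated gene Arc (at least 1.96-fold) and Dgat2.

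**Figure D4:**
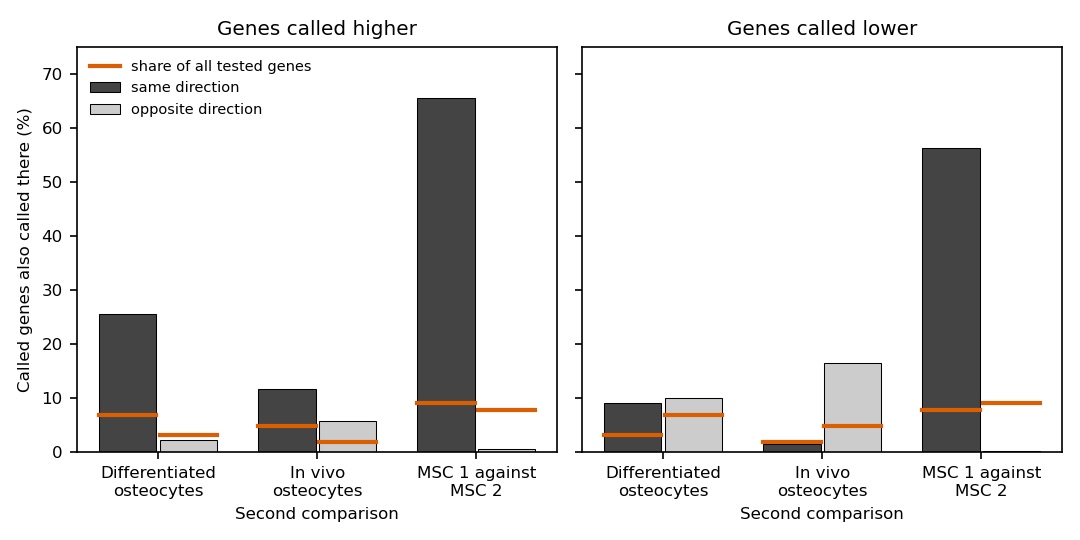
Share of the genes called higher (left) and lower (right) in reprogrammed osteocytes, in percent, that were also called in the same direction (dark bars) or the opposite direction (pale bars) in 3 comparisons that share no array with the first. Orange lines mark the share of the genes tested in each of these comparisons that was called in that direction. The MSC pair has the tallest dark bars, 65.6% and 56.2%.

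Both MSC arrays carry the same label, and nothing in the labels used here says what distinguishes them. Of 9457 genes tested on the MSC arrays, MSC 1 stood at least 2-fold above MSC 2 for 860 (9.09%). It stood below MSC 2 for 738 (7.8%), with 8.36% and 8.57% at the level of probes. Of the 514 genes higher in reprogrammed osteocytes, 337 were higher in MSC 1, 65.6% of them and 39.2% of the MSC list, and 3 were lower. Of the 475 lower genes, 267 were lower in MSC 1, 56.2% of them and 36.2% of the MSC list, and 1 was higher. Without any threshold, MSC 1 stood above MSC 2 for 93.8% of the higher genes and below it for 95.6% of the lower genes, against 50.1% and 49.8% of all tested genes. The median difference between the MSC arrays was 1.29 over the higher genes and -1.13 over the lower ones. The genes that ran the opposite way were Adipoq, Phospho1, a phosphatase of bone mineralisation, and Rgs4, a regulator of G protein signalling, and among the lower genes Apol10b.

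Inmt and Scara5 were among the genes that stood high in both. Inmt was at 8.96 in reprogrammed osteocytes and at 11.04 in MSC 1, and between 4.60 and 5.65 on the other 8 arrays. Scara5 was at 7.97 in reprogrammed osteocytes and 11.06 in MSC 1, and not detected in MSC 2 or in the other reprogrammed arrays, but it was also at 13.29 in differentiated osteocytes, 12.06 in differentiated adipocytes and 10.94 in differentiated chondrocytes. Gins1 was at 6.78 in MSC 1 and 8.43 in MSC 2, a difference in the same direction as that of the reprogrammed arrays. Over 22172 detected probes, the Pearson correlation of the reprogrammed osteocyte array was 0.971 with MSC 1 and 0.965 with MSC 2, and 0.936 with differentiated osteocytes. The reprogrammed adipocyte and chondrocyte arrays correlated at 0.988 and 0.990 with MSC 2 and at 0.942 and 0.933 with MSC 1. These correlations run across probes, which are not independent and share their intensity range.

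**Figure D5:**
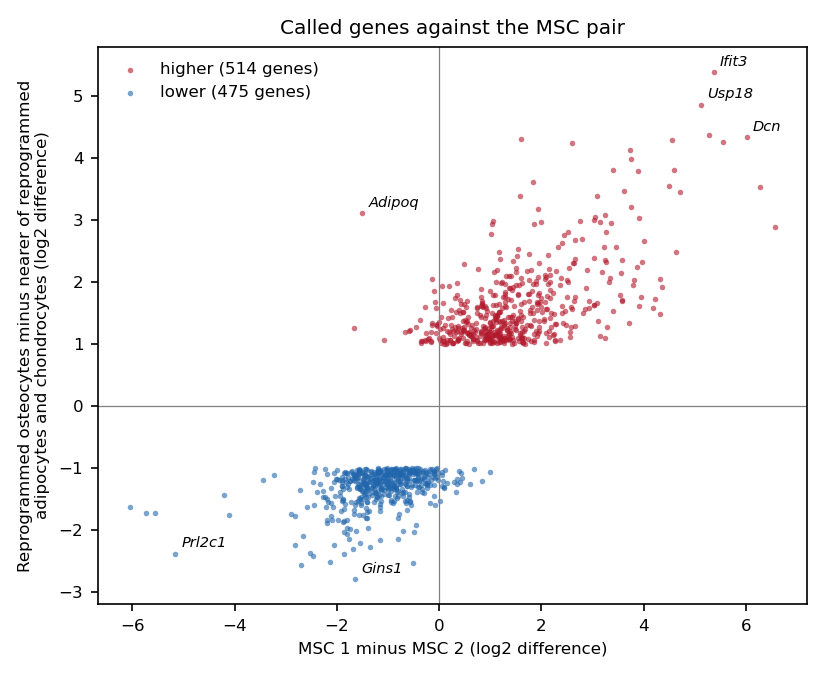
Difference of reprogrammed osteocytes from the nearer of the other reprogrammed arrays (vertical, log2) against MSC 1 minus MSC 2 (horizontal, log2), 1 point per called gene, 514 higher and 475 lower. The empty band at the middle is the 2-fold threshold. Most points lie in the upper right and lower left, and Adipoq is the far point in the upper left.

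For the called genes, the reprogrammed osteocyte array was placed against the range of the first array set. Of the 514 higher genes, 344 (66.9%) lay within the range of those 8 arrays and 260 (50.6%) between the MSC arrays. Of the 475 lower genes, 361 (76.0%) and 213 (44.8%) did. These shares were not counted over all tested genes, so they do not set the called genes apart from others. The reprogrammed osteocyte array stood at least 2-fold above all 9 other arrays for 28 genes and below them for 3. The same count was 36 and 3 for MSC 1, 1 and 1 for MSC 2, 2 and 7 for reprogrammed adipocytes and 6 and 1 for reprogrammed chondrocytes. Differentiated and in vivo arrays had more, from 133 genes above all others in differentiated osteocytes to 452 in differentiated adipocytes. The genes named next were chosen from the 28 and the 3 after their values were seen. Creb3l1, a transcription factor of collagen secretion in bone, was at 9.06 against at most 7.01 on any other array. Dlk1 was at 12.26 against at most 10.88. Calr, the endoplasmic reticulum chaperone calreticulin, was at 12.73 against at most 11.55. The cytokine receptors Tnfrsf1a and Ltbr were at 11.20 and 9.26, with gaps of 1.18 and 1.21 to the next array. The 3 lower genes were Npepl1, Irs2, an insulin receptor substrate, and Cdc42ep1, with gaps of -1.15, -1.08 and -1.01.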

How the data were processed

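Expression was measured on 10 Illumina mouse whole-genome bead arrays, 1 per RNA sample, and samples were grouped from their labels alone. The deposited scanner table pairs, per the file headers, a bead intensity with its detection p-value over 45281 probes. Per the labels' protocols, total RNA was column-purified and biotinylated cRNA was made with an amplification kit; no header or label says how the authors processed the intensity values further. The deposited value table, linear for 8 arrays and log2 for the reprogrammed and differentiated osteocytes, served only as an alternative. For those 8 arrays 1 of its 45281 lines carried the ID of the scanner probe with the same ranks, so it was matched by rank.

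Background was corrected with normexp from the detection p-values (offset 16), followed by quantile normalisation and log2, with neqc of limma 3.58.1 in R 4.3.3, and later steps in Python 3.11.15 with pandas 2.3.3. A probe was called at 2-fold or more from both reference arrays on 1 side, with a detection p-value under 0.01 in the brighter group. Symbols came from the array annotation, which names 1 gene for 34885 probes, several for 18 and no gene for 10378, 19057 genes in all, each read from its brightest probe by mean. With 1 array per population no test was made, and the number of arrays limits the precision.

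Named genes were the 15 with the largest nearer difference per direction, up to 8 per direction shared with both osteocyte comparisons, up to 6 per gene list from 42 lists, sex-linked genes, and up to 5 per direction called opposite ways in reprogrammed and differentiated osteocytes, with predicted genes passed over. Other genes are named after their values were seen. The members and lists were chosen with earlier results of these data known. The call rule was checked on simulated data. Alternatives covered background correction, offset, scaling, detection, fold threshold, reference array, table and probe choice. A further setting would drop probes that set both osteocyte arrays apart from the other 8. It had no probe to drop, so array set was not checked.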

Additional observations from a re-analysis of the deposited data

Results flagged for a closer look

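Of the genes named by rule, 19 were called in opposite directions in the reprogrammed and in the differentiated osteocyte comparison, each against its own adipocyte and chondrocyte arrays. The naming rule picks some genes for this trait, so the number 19 follows partly from it. Over all genes, 11 of the 514 higher ones (2.14%) were lower in differentiated osteocytes, against 3.05% of the genes tested in the differentiated comparison. Of the 475 lower ones, 47 (9.89%) were higher there, against 6.82%. With 1 array per population the difference between the comparisons was not tested. Values are nearer differences on the log2 scale, reprogrammed first, without the limit for undetected arrays. With that limit, Adipoq and Trem2 were at least 7.92-fold and at least 2.63-fold higher in reprogrammed osteocytes. Higher in reprogrammed and lower in differentiated osteocytes were the hormone gene Adipoq (3.10 and -1.22), the cobalamin carrier Tcn2 (2.09 and -1.41), the myeloid receptor Trem2 (1.64 and -1.13), the iron exporter Slc40a1 (1.63 and -1.09), Cyp4f13 (1.29 and -1.40), the collagenase Mmp13 (1.22 and -1.79) and the sterol enzyme Mvd (1.06 and -1.28). Adipoq, Tcn2, Cyp4f13 and Mvd were at 14.70, 10.52, 9.99 and 9.08 in differentiated adipocytes, and Trem2 was at 13.18 in differentiated chondrocytes, the array with macrophage genes.

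Lower in reprogrammed and higher in differentiated osteocytes were 12 genes. From the cell cycle list these were Ccna2 (-2.22 and 1.40), Plk1 (-1.34 and 1.32) and Birc5 (-1.31 and 1.28). Outside that list were the ubiquitin-conjugating enzyme gene Ube2c (-1.85 and 1.94), Uhrf1 of the DNA methylation list (-1.52 and 1.38) and the inhibitor Cdkn1c (-1.20 and 2.83). Neither Ccna2 nor Ube2c was detected in differentiated adipocytes or chondrocytes. With the limit for undetected arrays they were at least 1.16-fold and at least 1.69-fold higher in differentiated osteocytes, short of 2-fold. The proliferins, which a probe may not part, were Prl2c1 (-2.39 and 1.09), Prl2c4 (-1.73 and 1.71), Prl2c3 (-1.73 and 1.80) and Prl2c2 (-1.64 and 1.95). Ptgs2 (-2.43 and 1.02) and Adh7 (-2.38 and 1.18) completed the set.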

How the results depend on the processing

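Counts are given as probes higher, probes lower, then those shared with differentiated osteocytes (higher, lower) and with in vivo osteocytes (higher, lower), and last the probes 2-fold apart between the MSC arrays. As reported they were 1015, 816, 227, 65, 87, 12 and 2888. Without background correction they were 360, 201, 84, 7, 30, 1 and 1025, and with an offset of 50 they were 647, 438, 147, 22, 55, 4 and 1757. At a 1.5-fold threshold they were 2533, 2427, 597, 265, 244, 92 and 6607, and at 4-fold 159, 31, 28, 3, 8, 0 and 426, where a looser or stricter threshold changes counts by construction. Against the adipocyte array alone, 1277 and 1078 probes were called, with 498, 192, 330 and 187 shared. Against the chondrocyte array alone there were 1755 and 1697, with 646, 363, 189 and 80 shared. For background and offset the cause was not tested. Under 75th percentile scaling 847 probes were higher and 1217 lower, and the other settings, among them the matched value table (1014 and 816) and normalisation of the 3 arrays alone (995 and 791), stayed within 1.5 times of each count computed under them. The MSC pair was not counted with the value table, and neither overlaps nor the MSC pair with the 3 arrays alone. All of these are counts of probes, so the choice of probe per gene did not enter them. With genes read from the mean over detected probes, 58 gene values moved and 187 stayed the same. Dropping probes that set both osteocyte arrays apart from the other 8 removed no probe, so its counts were unchanged by construction. Of 140 named genes called, 89 kept their call without background correction, 119 with an offset of 50, 116 under 75th percentile scaling and 140 with the value table, and none of these settings reversed one. No paired analysis was possible because each compared group holds 1 array. Weakly expressed genes are limited by signal over background: 60 higher and 48 lower genes had a limit under 2-fold.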

Other observations

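Further lists are described here by their called genes, without a test, beside shares over all tested genes of 5.18% higher and 4.78% lower. Among 23 tested oxidative and xenobiotic genes, 4 (17.4%) were higher and 2 (8.7%) lower. The flavin monooxygenase Fmo1 was at 9.30 against 6.36 and 5.88, 7.66-fold higher, and the glutathione transferases Gstt1 and Gsta4 were 5.43-fold and 3.29-fold higher. The glutathione synthesis subunit Gclm and the thioredoxin reductase Txnrd1 were 2.21-fold and 2.44-fold lower. Among 20 tested BMP and TGF-beta genes, 2 (10%) were higher and 1 (5%) lower. The ligand Bmp4 was at 10.49 against 4.94 and 8.33, at least 4.48-fold higher, the BMP antagonist Grem1 was 3.44-fold higher, and Id1, a target of BMP signalling, was at 8.36 against 10.25 and 10.85, 3.72-fold lower. Among 12 tested Notch and Hedgehog genes, 2 (16.7%) were higher, the receptor Notch3 by 3.62-fold and its ligand Jag1 by at least 3.26-fold. Tfrc, the transferrin receptor, was at 9.21 against 11.32 and 11.04, 3.58-fold lower, and was the lower gene among 11 tested housekeeping genes, the other 10 not being called. Of these genes, Fmo1, Gstt1, Gsta4, Bmp4, Grem1, Notch3 and Jag1 were also called higher, and Gclm, Txnrd1, Id1 and Tfrc lower, in MSC 1 against MSC 2. None of 16 tested hypoxia and glycolysis genes was called.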
